A study of Mus musculus with 899 samples.

Results

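The 52 plasma samples described here were those of C57Bl/6 mice taken 2 months after irradiation of the thorax or sham treatment, out of 899 plasma samples in the series. They were chosen by their labels alone, strain C57Bl/6 and time point M2, without reference to any measured value. Irradiated mice gave 36 of the samples (20 females and 16 males) and sham mice gave 16 (8 females and 8 males), each from a different mouse.

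The study followed circulating miRNA in gnotobiotic C3H and C57Bl/6 mice of both sexes, whose thorax alone was exposed to X-rays while lead shielded the rest of the body. Males were 8 to 10 weeks old and females 10 to 12 weeks old at irradiation, and the sham group was of the same strain with no radiation. Every mouse was bled repeatedly, and the title letter A went with samples at day 2 and the letter B with samples at day 5 (20 irradiated and 8 sham of letter A, 16 irradiated and 8 sham of letter B). The comparison asked which miRNAs in plasma differed between irradiated and sham mice that were alive at 2 months. All 52 mice carried the same title code, and 4 irradiated females of letter A had no sample from before irradiation and none from day 2. Plasma is a mixture, so more cells releasing a miRNA, more release per cell and slower removal from blood could not be told apart in any value below.

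A miRNA is a short RNA that lowers the output of target mRNAs, which it recognises mainly through its seed, bases 2 to 8 from the 5′ end. Blood cells and the vessel lining supply most miRNA in plasma, and some miRNAs are made largely by a single organ or cell type. The miR-216a, miR-216b and miR-217 cluster is active in the acinar cells of the pancreas, miR-122 is the main miRNA of hepatocytes, miR-150 is abundant in mature lymphocytes, miR-202 is made in the gonads, and genes of the miR-34 family are switched on by p53 after DNA damage.

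The mature sequences of the differentially expressed miRNAs are shown, with the seed in capitals, because the seed decides which of them could share targets. They were taken from RefSeq with build GRCm38.p6, which held 38 of the 44 named miRNAs.
miR-216a-5p: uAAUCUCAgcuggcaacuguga
miR-216b-5p: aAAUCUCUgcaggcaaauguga
miR-217-5p: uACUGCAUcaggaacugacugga
miR-192-5p: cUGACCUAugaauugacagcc
miR-802-5p: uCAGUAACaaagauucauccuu
miR-34a-5p: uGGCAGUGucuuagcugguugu
miR-34c-3p: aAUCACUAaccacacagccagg
miR-34b-3p: aAUCACUAacuccacugccauc
miR-139-5p: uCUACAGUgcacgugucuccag
miR-202-5p: uUCCUAUGcauauacuucuuu
miR-202-3p: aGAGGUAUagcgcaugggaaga
miR-671-3p: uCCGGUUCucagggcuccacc
miR-96-5p: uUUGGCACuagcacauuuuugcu
miR-100-5p: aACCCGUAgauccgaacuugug
No full seed was shared between any pair of the differentially expressed miRNAs printed here. The seeds of miR-216a-5p and miR-216b-5p differed in their last base alone, so shared targets are not excluded for them. miR-34b-3p is printed because it has the same seed as miR-34c-3p. The miR-122-5p, miR-126a-5p and miR-150-5p sequences are not printed.

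Of 483 miRNAs with enough reads to test, 16 (3.31%) were differentially expressed at an adjusted p under 0.05, 11 of them higher (2.28%) and 5 lower (1.04%) in irradiated plasma. Each miRNA was tested with the quasi-likelihood F-test of edgeR, with p-values adjusted over the 483 miRNAs by the Benjamini-Hochberg method. Abundance is given below as CPM, the share of a library's reads scaled by the trimmed mean of M-values. The higher group held miR-216a-5p, miR-217-5p and miR-216b-5p of the pancreas cluster and miR-122-5p, miR-802-5p and miR-192-5p, which are listed for the liver. Its other members were miR-34c-3p, miR-34a-5p, miR-150-5p, miR-126a-5p and miR-139-5p. The lower group was miR-202-5p, miR-202-3p, miR-671-3p, miR-96-5p and miR-100-5p. The median log2 fold change over all 483 was 0.01. With DESeq2, 21 were called (11 higher and 10 lower), and with limma-voom 14 (13 higher and 1 lower), so the number of lower miRNAs depended on the method far more than the number of higher ones.

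**Figure D1:**
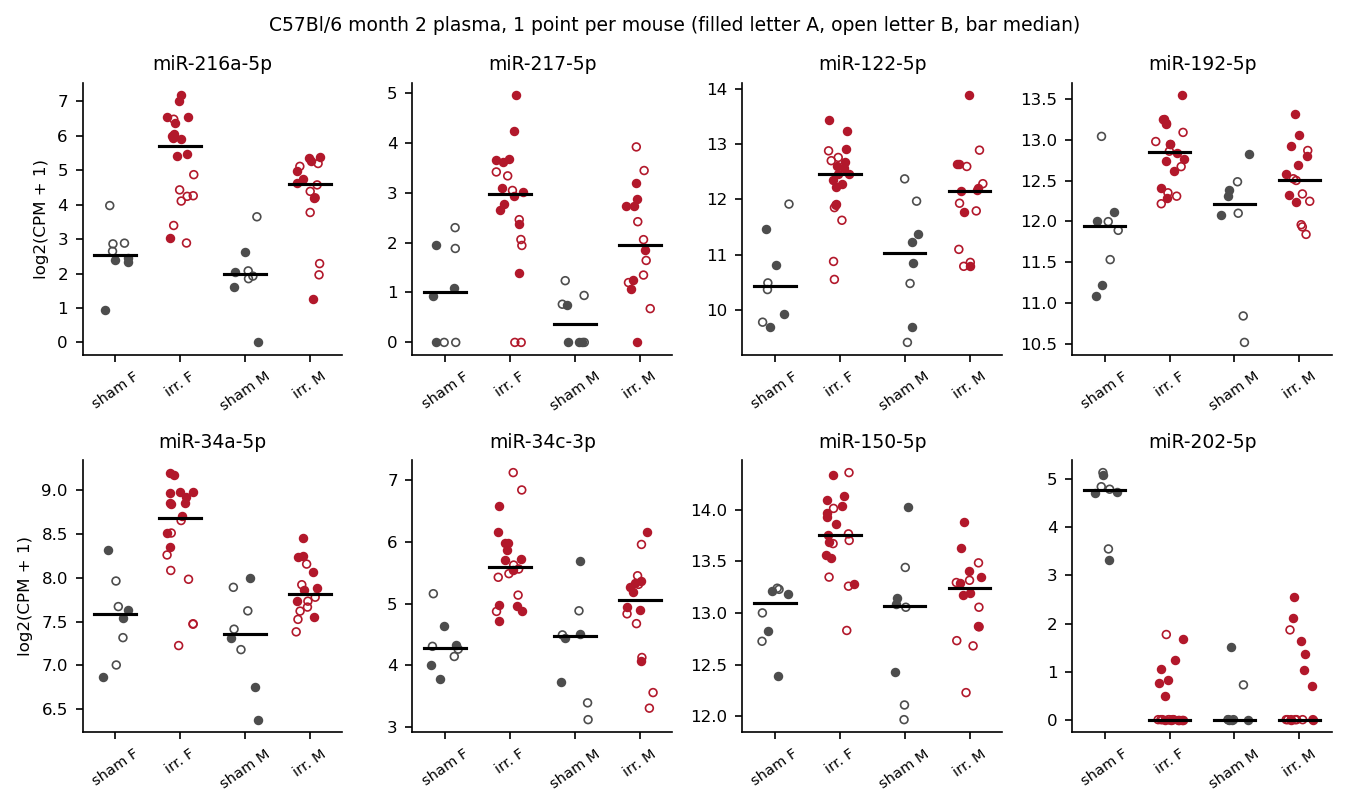
Abundance of 8 differentially expressed miRNAs in each of the 52 mice, as log2(CPM + 1), for sham and irradiated females (F) and males (M); filled points are letter A mice, open points letter B mice and bars medians. miR-202-5p was present in all 8 sham females and was low or at 0 reads in the other mice.

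The largest increases were in the pancreas cluster. miR-216a-5p had 1.38, 29.4 and 143 CPM as the lowest, median and highest of the irradiated mice, against 0, 4.19 and 14.7 CPM in sham mice. Of the 36 irradiated mice, 29 lay above the highest sham mouse, and 33 lay above the sham median. The log2 fold change was 3.06 (SE 0.40, edgeR adjusted p = 1.43e-11).

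The other members of the cluster are scarcer in plasma. miR-217-5p had 0, 5.44 and 29.9 CPM in irradiated mice (3 of 36 with no read) and 0, 0.69 and 3.92 CPM in sham mice (7 of 16 with no read). The ranges overlapped, with 22 of 36 irradiated mice above all sham mice, and the log2 fold change was 2.65 (SE 0.58, edgeR adjusted p = 0.000977). miR-216b-5p was near the limit of detection, with no read in 20 of 36 irradiated and 15 of 16 sham mice and a highest value of 6.89 against 1.4 CPM. Its 70 reads in irradiated and 2 reads in sham mice gave a ratio of pooled CPM of 16.4, with a 95% counting interval of 4.36 to 138 that takes no account of the spread between mice. The fitted change had an edgeR adjusted p of 0.0057.

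The 3 miRNAs lie together on chromosome 11 of GRCm38.p6 on the plus strand. Mir216a is at chr11:28757012-28757083 and Mir217 at chr11:28763728-28763835, 6644 bases apart and both within introns of the lincRNA Gm12082. Mir216b is at chr11:28746191-28746276, in no other annotated gene, 10735 bases from Mir216a. Within irradiated mice, miR-216a-5p and miR-217-5p varied together, with a Pearson r of 0.57 and a Spearman rho of 0.60 over 36 mice (permutation p = 0.00031 and 0.00019, 0.000723 for r after adjustment over the 7 pairs examined). Without the 2 mice farthest from the median of miR-216a-5p, r was 0.60. It was 0.70 in irradiated females and 0.23 in irradiated males, 0.68 in letter A and 0.28 in letter B. Among sham mice r was also 0.57. miR-375-3p, which is abundant in the endocrine cells of the pancreas as well as in gut epithelium, had a log2 fold change of 0.31 (SE 0.17, edgeR adjusted p = 0.441).

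The hepatocyte miRNAs were the next group. miR-122-5p had 1506, 4969.6 and 15060.4 CPM in irradiated mice and 685, 1623 and 5299 CPM in sham mice. Nearly all irradiated mice, 35 of 36, lay above the sham median, and 16 lay above the highest sham mouse. The log2 fold change was 1.36 (SE 0.34, edgeR adjusted p = 0.00507).

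miR-192-5p, which is shared by liver, kidney and gut epithelium, had 3664, 6736 and 11956 CPM in irradiated and 1462, 4221 and 8434 CPM in sham mice. The log2 fold change was 0.69 (SE 0.18, edgeR adjusted p = 0.00684), with 33 of 36 irradiated mice above the sham median. miR-802-5p, which in liver is linked to glucose metabolism, had 0, 21.1 and 54.4 CPM in irradiated and 0.96, 10.8 and 28.4 CPM in sham mice. The change was 1.17 on the log2 scale (SE 0.34, edgeR adjusted p = 0.0208). Without the 4 irradiated females that had no sample from before irradiation, its log2 fold change was 1.07 and the edgeR adjusted p 0.0517. Leaving out any of sham mice 1013, 1015 and 1025 also ended its call (0.99 to 1.09, edgeR adjusted p from 0.0592 to 0.0918), and leaving out sham mouse 1025 ended that of miR-192-5p (0.55, edgeR adjusted p = 0.0761). There were 9 hepatocyte arms listed (both arms of miR-122, miR-192, miR-194 and miR-802), of which 8 were tested. Of these, 3 rose and 5 were not called, where 16 of all 483 miRNAs were called. Their median log2 fold change was 0.49 beside 0.01 over all miRNAs. The passenger arm miR-122-3p had a log2 fold change of 1.35 (edgeR adjusted p = 0.472) on 72 reads in all 52 libraries, and miR-194-5p, whose genes lie beside those of miR-192 and miR-215, had 0.29 (edgeR adjusted p = 0.712). miR-215-5p, which has the seed of miR-192-5p, had a log2 fold change of 0.51 and was not called.

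The 3 hepatocyte members that rose also varied together among the irradiated mice. Over 36 mice, miR-192-5p and miR-802-5p had a Pearson r of 0.72 and a Spearman rho of 0.68 (permutation p = 1e-05, the smallest that 100000 resamples could give, and 2e-05; 7e-05 for r after adjustment over 7 pairs). miR-122-5p and miR-192-5p had an r of 0.62 and a rho of 0.61 (permutation p = 7e-05 and 0.00014, 0.000245 adjusted). Without the 2 mice farthest from the median, these r values were 0.67 and 0.64, and within sexes and letters they ranged from 0.43 to 0.83. For miR-122-5p and miR-802-5p, r was 0.38 and rho 0.51 (permutation p = 0.0226 and 0.00167, 0.0226 for r after adjustment), but r was 0.22 in males and 0.10 in letter B. Among sham mice, r for these 3 pairs was 0.61, 0.65 and 0.10 in the same order. Across lists, miR-216a-5p had an r of 0.51 with miR-34a-5p and 0.39 with miR-122-5p in irradiated mice (permutation p = 0.00141 and 0.0199, 0.00247 and 0.0226 adjusted). In sham mice these were 0.26 and 0.41. Among irradiated mice, r with miR-34a-5p was 0.52 in females, 0.09 in males, 0.37 in letter A and 0.30 in letter B. For miR-122-5p it was 0.49 in females, 0.19 in males, 0.46 in letter A and 0.004 in letter B. Mir192 is at chr19:6264844-6264932 and Mir802 at chr16:93369720-93369816, both on the plus strand and in no annotated host gene. Over the 264 miRNAs with enough reads, those most like miR-216a-5p across the 36 irradiated mice were miR-802-5p (Pearson r of 0.67), miR-30e-5p (0.65) and miR-192-5p (0.62), which is a description of libraries that share their normalisation.

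In the miR-34 family, 2 members rose. miR-34a-5p, the arm best known as a p53 target, had 149, 292 and 586 CPM in irradiated and 82.3, 177 and 318 CPM in sham mice. The groups overlapped, with 32 of 36 irradiated mice above the sham median, and the log2 fold change was 0.82 (SE 0.21, edgeR adjusted p = 0.00507). miR-34c-3p, an arm of a cluster that is abundant in ciliated epithelium, had 8.88, 39.8 and 138 CPM in irradiated and 7.69, 18.9 and 50.8 CPM in sham mice. The log2 fold change was 1.13 (SE 0.25, edgeR adjusted p = 0.00113), also with 32 of 36 above the sham median.

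The rest of the family did not pass the test. miR-34b-3p, with the same seed as miR-34c-3p and a hairpin close by on chromosome 9 (Mir34b at chr9:51103562-51103645, Mir34c at chr9:51103034-51103110, minus strand, both within an intron of Btg4 on the opposite strand), had a log2 fold change of 0.37 (SE 0.26, edgeR adjusted p = 0.646). miR-34c-5p, the other arm of the same hairpin, had 0.16 (edgeR adjusted p = 0.850), and miR-449a-5p, with the seed of miR-34a-5p, had 0.41 (edgeR adjusted p = 0.820). miR-34b-5p, which also has the seed of miR-34a-5p, went the other way at -0.43 (SE 0.58, edgeR adjusted p = 0.845), on 134 reads in all. Of 11 arms listed for miR-34 and miR-449, 6 were tested, 2 rose and 4 were not called, where 16 of all 483 miRNAs were called. Their median was 0.39 beside 0.01 over all miRNAs. Mir34a is at chr4:150068454-150068555 on the plus strand, in no other annotated gene. Across irradiated mice miR-34a-5p and miR-34c-3p had an r of 0.41 and a rho of 0.41 (permutation p = 0.0122 and 0.0128, 0.0171 for r after adjustment over 7 pairs). The relation was weak within irradiated females (r = 0.09) and higher in irradiated males (r = 0.49). Among sham mice r was 0.06.

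The remaining increases were modest and in abundant miRNAs. miR-150-5p, a lymphocyte miRNA that limits the transcription factor Myb, had 4801, 11637 and 21010.0 CPM in irradiated and 4004, 8606 and 16685 CPM in sham mice. The log2 fold change was 0.54 (SE 0.15, edgeR adjusted p = 0.0165), with 29 of 36 irradiated mice above the sham median. miR-126a-5p, from an intron of the endothelial gene Egfl7, had 9420 CPM as its lowest, 18554 as its median and 42645 as its highest irradiated value, and 9563, 14612 and 19055 CPM in sham mice (log2 fold change 0.50, SE 0.13, edgeR adjusted p = 0.00818). miR-139-5p, whose hairpin lies in an intron of Pde2a at chr7:101475376-101475443 on the plus strand, had 201, 325 and 543 CPM in irradiated and 123, 242 and 409 CPM in sham mice (log2 fold change 0.47, SE 0.12, edgeR adjusted p = 0.00507).

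The 4 irradiated females with no sample from before irradiation had between 27674 and 42645 CPM of miR-126a-5p, which included the highest value. Without them its log2 fold change was 0.38 (edgeR adjusted p = 0.103), and that of miR-150-5p was 0.47 (edgeR adjusted p = 0.0601). The miR-126a-5p call was also lost without sham mouse 1025 or 1037 (0.44 and 0.41, edgeR adjusted p = 0.0573 and 0.0562), and the miR-150-5p call without sham mouse 1013, 1015 or 1025 (0.42 to 0.49, edgeR adjusted p from 0.0554 to 0.117). The arm from the same hairpin, miR-126a-3p, had a log2 fold change of 0.25 (edgeR adjusted p = 0.441). Of 15 leukocyte arms listed, 11 were tested, only miR-150-5p was called (against 16 of all 483 miRNAs), 9 of the 11 had a value above 0 (against 250 of 483) and the median was 0.33 beside 0.01. miR-146a-5p, which damps inflammatory signalling, missed the threshold with a log2 fold change of 0.45 (edgeR adjusted p = 0.0543), while miR-155-5p, which is induced in activated lymphocytes and macrophages, had 0.12 (edgeR adjusted p = 0.859).

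Both arms of miR-202 were lower, and the difference came from females. In sham females miR-202-5p had 8.93, 26.3 and 34.3 CPM and was read in all 8 mice. In irradiated females it had 0, 0 and 2.41 CPM, with no read in 13 of 20, so that all 20 irradiated females lay below all 8 sham females. In males it was close to the limit of detection in both groups, at 0, 0 and 1.86 CPM in sham mice (6 of 8 with no read) and 0, 0 and 4.83 CPM in irradiated mice (9 of 16 with no read). Pooled over females, sham plasma had 51.0 times the CPM of irradiated plasma (322 against 14 reads, 95% counting interval 29.98 to 94.4).

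Over both sexes the log2 fold change of miR-202-5p was -3.89 (SE 0.70, edgeR adjusted p = 7.54e-06). In females it was -5.47 (edgeR adjusted p = 1.66e-15) and in males 1.53 (SE 0.96, edgeR adjusted p = 0.723), and the difference between the sexes was -7.00 (SE 1.15, edgeR adjusted p = 9.52e-07). The pooled call was lost with limma-voom (adjusted p = 0.107), with the mouse as a block in limma-voom (adjusted p = 0.0728) and with sex in the groups. The difference between sexes held with limma-voom, both with and without the block. The fit with sex in the groups is the one that gave that difference, so it is no separate test of it. miR-202-3p, the other arm, had 0.89, 3.46 and 20.6 CPM in sham females and at least 1 read in all 8, against no read in 19 of 20 irradiated females. Its log2 fold change was -2.57 (SE 0.67, edgeR adjusted p = 0.00684) over both sexes and -4.50 (SE 0.76) in females, with a sex difference of -5.55 (SE 1.25, edgeR adjusted p = 0.00237). The pooled call for miR-202-3p was also lost without 1 sham mouse, number 1037, where the log2 fold change was -1.89 (edgeR adjusted p = 0.105), and with the mouse block (adjusted p = 0.237). Mir202 is at chr7:139957689-139957760 on the minus strand, within an exon of the lincRNA Gm2044. Of 32 gonad arms listed, 5 were tested and the 2 arms of miR-202 were the ones called (against 16 of all 483 miRNAs), so the list rests on 1 hairpin.

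The other decreases were smaller and less stable. miR-671-3p, from an exon of Chpf2 (chr5:24592114-24592211, plus strand), had 5.39, 21.1 and 85.4 CPM in irradiated and 15.9, 28.6 and 77.5 CPM in sham mice (log2 fold change -0.72, SE 0.21, edgeR adjusted p = 0.0208), with 12 of 36 irradiated mice below all sham mice. Its call was lost without sham mouse 1001, 1013, 1015 or 1027 (-0.67 to -0.61, edgeR adjusted p from 0.0514 to 0.136). miR-96-5p, of the miR-183 cluster that is abundant in sensory epithelia (chr6:30169446-30169551, minus strand), had 0, 8.83 and 91.2 CPM in irradiated and 2.42, 10.5 and 211 CPM in sham mice. Its medians were close and its log2 fold change of -1.24 (SE 0.38, edgeR adjusted p = 0.0353) rested on few mice. The call was lost without sham mouse 1013, 1015 or 1039 or irradiated mouse 1035 (-1.21 to -0.67, edgeR adjusted p from 0.0502 to 0.541), and in letter A alone the sign turned (0.26).

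miR-100-5p (chr9:41531425-41531504, plus strand) had 0, 13.2 and 86.1 CPM in irradiated and 0, 18.7 and 184 CPM in sham mice, with a log2 fold change of -1.09 (SE 0.33, edgeR adjusted p = 0.0361). Its call was lost without sham mouse 1001, 1013 or 1015 or irradiated mouse 1035 or 1041 (-1.06 to -0.62, edgeR adjusted p from 0.0521 to 0.664). With the mouse as a block in limma-voom, the adjusted p was 0.459 for miR-96-5p and 0.620 for miR-100-5p, and neither was called by limma-voom without the block. miR-99a-5p and miR-99b-5p, which have the seed of miR-100-5p, had a median log2 fold change of -0.25 and were not called.

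**Figure D2:**
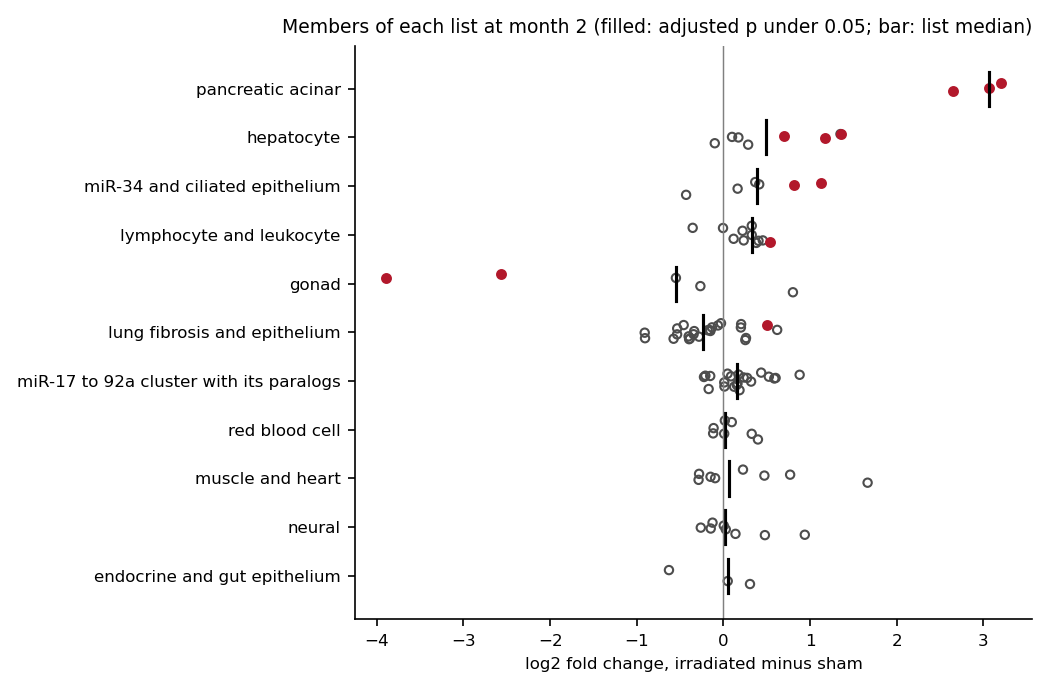
Log2 fold change of each tested member of 11 lists of miRNAs, irradiated minus sham; filled points passed an adjusted p of 0.05, open points did not, and bars are list medians. All 3 pancreatic acinar members sit above 2.6, while no red blood cell, muscle, neural or miR-17 to 92a member was called. Over all 483 miRNAs, 16 (3.31%) were called.

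The other lists held few or no called miRNAs. Of 7 red blood cell arms, all tested, none was called and the median was 0.02, with miR-451a, the main erythrocyte miRNA, at 0.02 (SE 0.24). Of 15 muscle and heart arms, 8 were tested and none was called (median 0.07). The cardiac myosin miRNAs miR-208a-3p and miR-499-5p had unadjusted edgeR p values of 0.022 and 0.029, with log2 fold changes of 1.66 and 0.77. However, miR-208a-3p was near the limit of detection, with 70 reads in all and a median of 0 reads. Another cardiac myosin miRNA, miR-208b-3p, had 0.47 (unadjusted edgeR p = 0.492) on 103 reads. None of 21 tested members of the miR-17 to 92a cluster and its paralogs, none of 8 neural members and none of 3 endocrine and gut members was called, with medians of 0.16, 0.02 and 0.05. Over all 483 miRNAs, 16 (3.31%) were called, so the absence of calls in lists this short does not set them apart.

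The list for lung fibrosis and epithelium had a median below 0. Of 27 arms, 24 were tested and only miR-126a-5p was called (against 16 of all 483 miRNAs). A value below 0 was found for 18 of 24 beside 233 of all 483 miRNAs, with a median of -0.23 beside 0.01 over all miRNAs. Its lowest members were miR-141-5p at -0.91 (SE 0.31) and miR-200c-3p at -0.90 (SE 0.32), epithelial miRNAs that restrain ZEB factors, with edgeR adjusted p of 0.0874 and 0.0878. miR-21a-5p, a miRNA raised in many fibrotic tissues, had -0.13 (SE 0.10, edgeR adjusted p = 0.696), and miR-29a-3p, which represses collagen genes, had -0.15 (SE 0.11, edgeR adjusted p = 0.651).

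Just past the threshold were 10 miRNAs with edgeR adjusted p between 0.0543 and 0.0937. Besides miR-146a-5p, miR-141-5p and miR-200c-3p these were miR-6960-5p, miR-125b-5p, miR-31-5p, miR-615-3p, miR-224-5p, miR-130b-3p and miR-7094-3p. miR-125b-5p and miR-31-5p had log2 fold changes of -0.45 and -0.54, and miR-224-5p and miR-130b-3p of 0.63 and 0.60. Of the miRNAs that the study names for plasma, miR-18b-5p (0.44), miR-142a-3p (0.38), miR-142a-5p (0.41), miR-106a-5p (0.32), miR-335-5p (0.62), miR-542-5p (0.49), miR-431-5p (-0.56), miR-199b-5p (-0.46), miR-1968-5p (0.10) and miR-135b-5p (-0.06) were not called at 2 months. Others that it names for plasma were called, as given above: miR-216a-5p, miR-202-5p, miR-34c-3p, miR-122-5p, miR-34a-5p and miR-150-5p. Of the plasma miRNAs it names for survival, miR-802-5p, miR-96-5p and miR-100-5p were also called. miR-199a-5p (-0.53, edgeR adjusted p = 0.333) was not. The plasma miRNAs of the study were chosen in part on these samples and are not independent evidence of a direction.

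**Figure D3:**
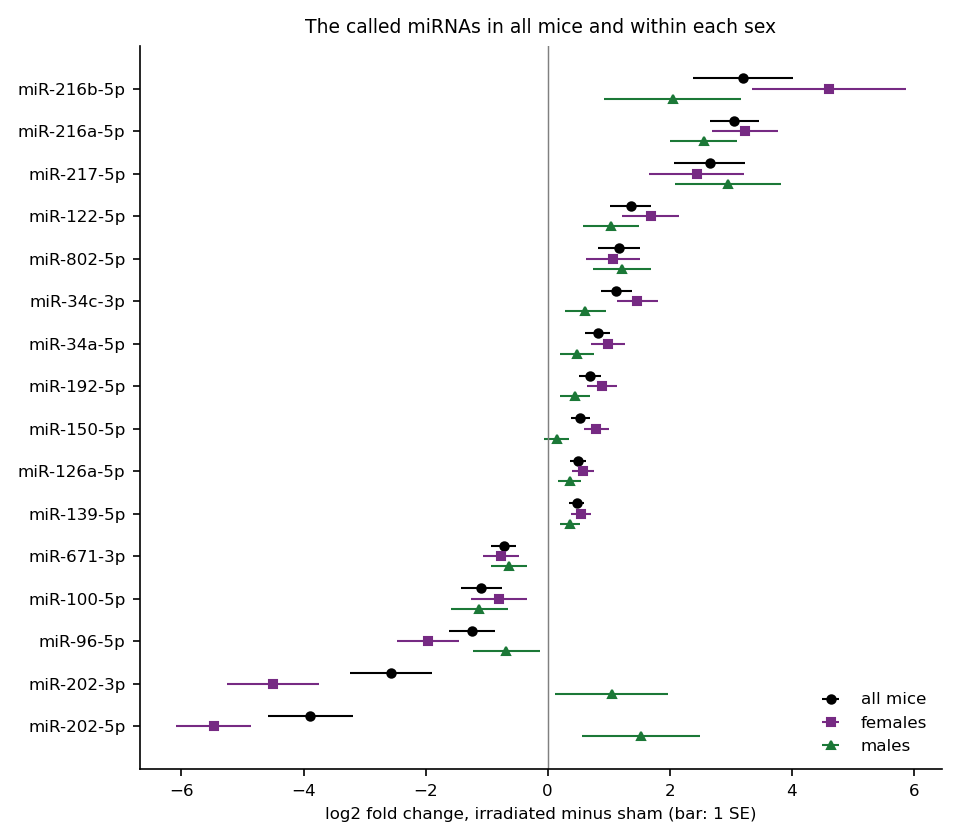
Log2 fold change, irradiated minus sham, of the 16 differentially expressed miRNAs in all mice, in females and in males; bars are 1 SE. Female and male values lie on the same side of 0 for 14 miRNAs and on opposite sides for the 2 arms of miR-202.

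More miRNAs were called in females than in males. Within females 17 miRNAs (3.52%) were called, 11 higher and 6 lower, and within males 1 (0.207%), miR-216a-5p, with 27 at an unadjusted p under 0.05. The smaller male groups (16 irradiated and 8 sham, against 20 and 8 females) went with similar standard errors, for example 0.55 in males and 0.54 in females for miR-216a-5p. The difference between sexes was itself past the threshold for 3 miRNAs (0.621%), the 2 arms of miR-202 and miR-292a-5p, so a sex difference was not shown for the other miRNAs called in females. The miR-292a-5p difference rested on reads in 2 of the 52 libraries, and neither limma-voom (adjusted p = 0.990) nor the mouse block (adjusted p = 0.997) called it.

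miR-216a-5p had a log2 fold change of 3.23 in females and 2.56 in males (SE 0.55, edgeR adjusted p = 0.0015), and medians of 51.1 CPM in irradiated and 4.86 in sham females, and 23.1 CPM in irradiated and 2.94 in sham males. For miR-217-5p the values were 2.44 in females and 2.95 in males. For miR-122-5p they were 1.69 and 1.04, for miR-34a-5p 0.99 and 0.49, and for miR-34c-3p 1.47 and 0.62, and none of these differences between sexes passed the threshold. miR-150-5p was 0.80 in females and 0.15 in males (difference 0.65, SE 0.29, edgeR adjusted p = 0.670), and 19 of 20 irradiated females lay above all sham females. Called in females alone were miR-224-5p (1.08, SE 0.31), miR-146a-5p (0.67, SE 0.20), the stromal miRNAs miR-199a-5p (-1.15, SE 0.34) and miR-214-3p (-1.05, SE 0.32), both of which have a hairpin in an exon of Dnm3os, and miR-370-3p (-2.91, SE 0.90). The last 3 had male values of 0.04, 0.07 and 0.74, and edgeR adjusted p of 0.649, 0.670 and 0.294 for the difference between sexes.

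The comparison was also made within each title letter. In letter A mice the log2 fold change of miR-216a-5p was 4.11 (SE 0.58) and in letter B mice 1.76 (SE 0.52), a difference of 2.35 (SE 0.71, edgeR adjusted p = 0.157). Irradiated letter A mice had a median of 42.7 CPM and letter B mice 18.02 CPM, while sham mice had 3.59 and 5.76 CPM. miR-217-5p was 3.18 and 1.98, miR-122-5p 1.81 and 0.83, miR-34c-3p 1.04 and 1.21, and miR-202-5p -3.44 and -4.78 in letters A and B. Fitted without the other letter, letter A alone gave 8 calls and letter B alone 1, which was miR-202-5p, and miR-216a-5p was not called in letter B alone (1.74, edgeR adjusted p = 0.130). Further, leaving out the 12 irradiated and the sham females of letter A gave 3 calls, 2 of them (miR-216a-5p and miR-202-5p) among the 16. With the 4 females that had no sample from before irradiation left out, 13 were called, 11 of them among the 16.

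The strains differed in miR-216a-5p. C3H mice, compared at the same month (28 irradiated and 16 sham), had 3 called miRNAs (0.621%), miR-202-5p (-4.59, SE 0.80), miR-202-3p (-3.23, SE 0.71) and miR-34c-3p (1.24, SE 0.26), all of which were called in the same direction in C57Bl/6. In C3H too, miR-202-5p differed mainly in females, from 4.61 to 56.5 CPM in sham and from 0 to 1.26 CPM in irradiated females. C3H males ran from 0 to 2.93 CPM in sham and from 0 to 7.61 CPM in irradiated mice. A sex difference within C3H was not tested. miR-216a-5p in C3H had 10.1, 20.1 and 55.0 CPM in irradiated and 12.3, 19.7 and 52.1 CPM in sham mice, which differed by -0.04 on the log2 scale (SE 0.34). The difference between strains, 3.10 (SE 0.50), was past the threshold for miR-216a-5p alone of 483 miRNAs (0.207%). The sham levels also differed in their ranges, since 15 of 16 C3H sham mice lay above the highest C57Bl/6 sham value of 14.7 CPM.

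miR-217-5p had 0, 2.77 and 7.35 CPM in irradiated and 0, 3.13 and 6.60 CPM in sham C3H mice, with a strain difference of 2.65 (SE 0.76, edgeR adjusted p = 0.0751). miR-150-5p had a strain difference of 0.76 (SE 0.21, edgeR adjusted p = 0.0751), with a log2 fold change of -0.22 in C3H. For miR-122-5p the C3H value was 1.04 (SE 0.34, edgeR adjusted p = 0.149) and for miR-34a-5p 0.74 (SE 0.21, edgeR adjusted p = 0.0592), and the strain differences were 0.32 (SE 0.46) and 0.08 (SE 0.29).

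**Figure D4:**
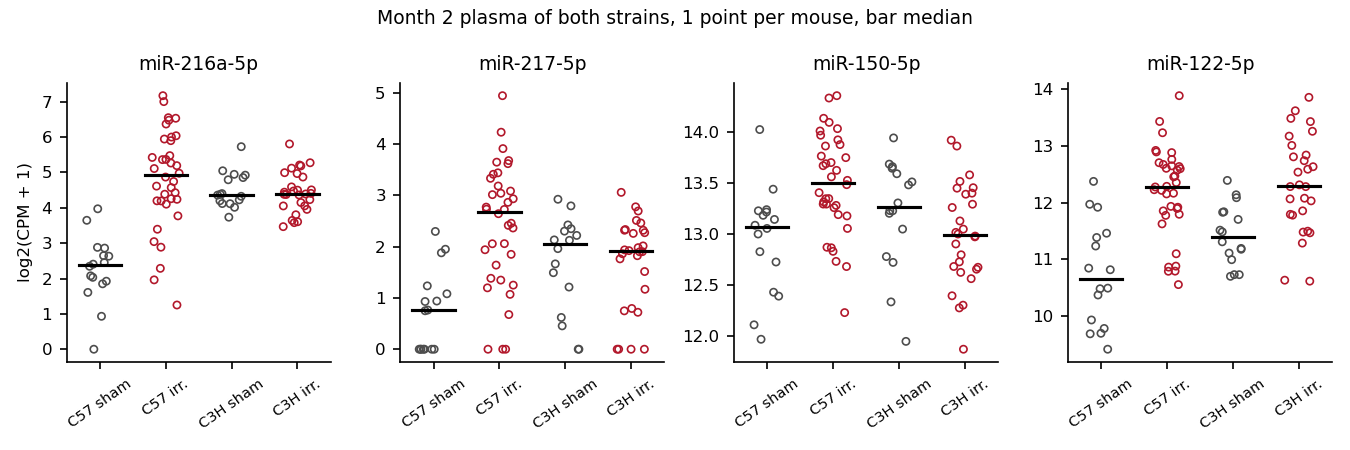
Abundance of 4 miRNAs at month 2 in each mouse of both strains, as log2(CPM + 1), with bars at medians. Irradiated C57Bl/6 mice stand above C57Bl/6 sham mice in miR-216a-5p, whereas both C3H groups lie at similar levels.

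The month 2 values were set beside those of the other C57Bl/6 time points. For miR-122-5p the log2 fold change was -1.69 at day 2, -1.74 at day 5, -0.55 at month 1, 1.36 at month 2, 1.47 at month 3, 2.97 at month 4, 3.23 at month 5 and 1.10 at month 6, and it was not called at month 1 or month 6. Irradiated mice with a sample fell from 36 at month 2 to 31, 29, 21 and 8 at months 3, 4, 5 and 6, beside 16 sham mice each month. The month 1 value of the fit differed in sign from the group means, which on the log2 CPM scale were 11.70 ± 0.79 (SD, n = 68) after irradiation and 11.66 ± 1.25 (SD, n = 32) after sham treatment. At month 2 the means were 12.19 ± 0.78 (SD, n = 36) and 10.74 ± 0.91 (SD, n = 16), so that the sham mean was lower, and the irradiated mean higher, than at month 1. The difference between the month 2 and month 1 effects, 1.91 (SE 0.40, edgeR adjusted p = 0.0012), was 1 of 2 changes past the threshold among 483 (0.414%). limma-voom gave 1.44 for it (adjusted p = 0.0698), and the mouse block in limma-voom called it. The other was miR-7a-5p, from 1.32 at month 1 to 0.05 at month 2 (difference -1.27, edgeR adjusted p = 0.0017), which limma-voom (adjusted p = 0.989) and the mouse block (adjusted p = 0.993) did not call. Its month 1 means on the log2 CPM scale were 7.21 ± 0.98 (SD, n = 68) after irradiation and 7.02 ± 0.80 (SD, n = 32) after sham treatment, closer together than the fitted value.

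miR-216a-5p was at 0.02 before irradiation, 1.04 and 1.12 at days 2 and 5, 2.07 at month 1 and 3.06 at month 2, and was called at every month from 1 to 6. miR-217-5p followed with 1.83 at month 1, 2.65 at month 2 and 2.51 at month 3. Lymphocyte miR-150-5p was lower by 1.55 and 1.10 on the log2 scale at days 2 and 5 (values -1.55 and -1.10, both called), was at -0.05 at month 1 and, of the monthly time points, was called at month 2 alone. miR-202-5p was higher at day 2 (2.2), and lower and called from month 1 (-3.10) to month 5 (-2.84). miR-34a-5p had its highest value at day 5 (1.70), was not called at month 1 (0.43) and was called again at month 2 (0.82). miR-671-3p and miR-96-5p were called in C57Bl/6 at month 2 alone. From month 2 on, the samples came largely from the same mice. Earlier time points also held mice with no month 2 sample, with 68 irradiated and 32 sham mice at month 1 against 36 and 16 at month 2. Among the mice with no month 2 sample were mice of another title code than the one all month 2 mice carried. The month 1 and month 2 effects therefore came partly from different mice and title codes, and the part of the code was not tested. Between months 2 and 3 no change in effect was called by edgeR, DESeq2 or limma-voom, with 18 at an unadjusted p under 0.05 by edgeR.

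**Figure D5:**
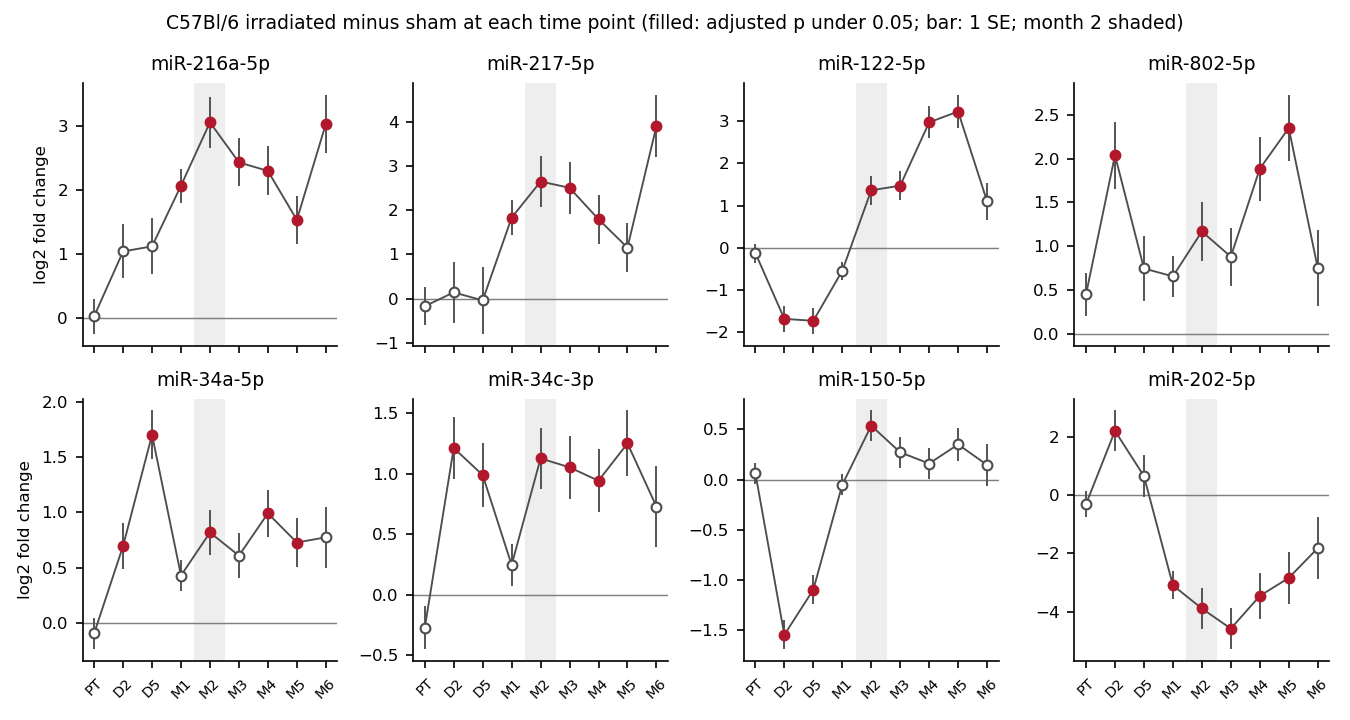
Log2 fold change, irradiated minus sham, in C57Bl/6 plasma before irradiation (PT), at days 2 and 5 (D2, D5) and at months 1 to 6 (M1 to M6) for 8 miRNAs; bars are 1 SE, filled points passed an adjusted p of 0.05 and month 2 is shaded. miR-122-5p and miR-150-5p turned from negative at days 2 and 5 to positive at month 2.

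Depth and measures of blood cell RNA were compared between the groups. Total counts ran from 795545 to 2293460 in irradiated and from 889712 to 2382773 in sham mice (permutation p = 0.438 for the log10 totals, 0.657 adjusted over 3 measures), and the number of miRNAs with a read from 386 to 535 and from 377 to 551 (permutation p = 0.764). miR-16-5p took a median of 43.6% of the reads in irradiated and 43.9% in sham mice. The hemolysis index, log2 miR-451a minus miR-23a-3p, had a mean of -1.001 ± 0.71 (SD, n = 36) in the irradiated and -0.75 ± 0.62 (SD, n = 16) in the sham group (permutation p = 0.228, 0.657 adjusted). In females it was -1.30 ± 0.70 (SD, n = 20) against -0.60 ± 0.45 (SD, n = 8; permutation p = 0.0153 in females alone), so irradiated females, in whom most calls were made, also had less red blood cell miRNA by this index, and its part in those calls was not tested. Of 4 red blood cell markers none was called, with summed levels from 14507 to 44891 CPM in irradiated and from 17472 to 49514 CPM in sham mice. Neural markers were near 0, with miR-124-3p and miR-219a-2-3p at a median of 0 reads, and summed muscle and heart markers ran from 185 to 39448 CPM in irradiated and from 922 to 25007 CPM in sham mice.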

How the data were processed

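Plasma miRNA was sequenced from 25 µL of plasma with a QIAseq miRNA library kit and 22 amplification cycles, per the labels. The authors trimmed the reads, aligned them to mouse miRNAs (build mm10 per the labels) with the Small RNA application of BaseSpace and deposited raw read counts per miRNA, without normalization. They excluded hemolysed plasma and libraries of low yield, and whether molecular indices were counted is not given in the sources used here. PCR reads are not independent molecules, so counting intervals cover counting error only.

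From the deposited counts, 483 of 1915 miRNAs passed edgeR's filterByExpr (99.99% of reads). A mean for each of 32 groups of strain, treatment and time point was fitted over all 899 samples of 196 mice (867 residual degrees of freedom) with TMM normalization and edgeR's quasi-likelihood test, in edgeR 4.0.16 under R 4.3.3, with Benjamini-Hochberg adjustment within each contrast and a threshold of 0.05. The study normalized log2 RPM by quantiles and used limma and voom, and the alternatives here were limma on quantile-normalized log2 RPM and, separately, limma-voom on the TMM-normalized counts. Differences between sexes came from a fit with 64 group by sex means, and those between letters from group by letter means, a fit chosen after seeing the data. SE is the log2 fold change divided by the root of F. CPM values are scaled by TMM, and log2 CPM has a prior count of 2. Depth at month 2 had a median of 1276776 counts in irradiated and 1541220.5 in sham libraries, and no pair of libraries was identical. Quality measures and correlations used two-sided permutation tests with 100000 resamples (Python 3.11.15, numpy 2.4.6). Scripts were tested on simulated data.

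Irradiated and sham mice are different animals, so the month 2 comparison has no pairs. Across time the mouse number marks the same animal, and deviations from group means correlated by 0.0816 on average over 301 pairs of samples of a mouse (-0.000634 over 22839 pairs of different mice). The mouse was therefore a block in alternative fits with limma 3.58.1 (consensus correlation 0.0434). Other alternatives were DESeq2 1.42.0, its size factors in edgeR, no filter on low counts, a mean of 10 CPM or more, the 2 groups alone, a term for the letter, each sex or letter alone, and libraries of 500000 reads or more. Leaving out each library or each stratum of sex and letter was added after seeing the data. Named miRNAs were all those called, the next 10 by p, those named by the study for plasma, members of lists for tissues and cell types, and the 3 most correlated with miR-216a-5p. miR-292a-5p, miR-214-3p, miR-370-3p and the miRNAs with a shared seed were named after their values were seen. The members and lists were chosen with earlier results of these data known.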

Additional observations from a re-analysis of the deposited data

Results flagged for a closer look

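Differences between sexes, strains, months or letters that passed their own test were looked at again. The female minus male difference in the irradiation effect was -7.00 for miR-202-5p and -5.55 for miR-202-3p on the log2 scale, from all sham females having reads of both arms and irradiated females few or none. For miR-292a-5p the sex difference was -7.31 and the letter A minus letter B difference -7.35, and both rested on reads in 2 of 52 libraries, 1 sham female and 1 irradiated male of letter B at 27.6 CPM. The C57Bl/6 minus C3H difference was 3.10 for miR-216a-5p, the only miRNA of 483 past the threshold in that test. The month 2 minus month 1 difference in C57Bl/6 was 1.91 for miR-122-5p, which turned from below sham at days 2 and 5 to above sham at month 2. It was -1.27 for miR-7a-5p, which was called at month 1 (1.32) and not at month 2 (0.05). No explanation of these differences was tested.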

How the results depend on the processing

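Over 17 to 21 alternatives per miRNA, miR-216a-5p was called in 20 of 21, miR-122-5p and miR-34a-5p in 18, miR-34c-3p in 17, miR-217-5p in 14 of 18 and miR-202-5p in 14 of 19, while miR-100-5p was called in 7 of 21 and miR-96-5p in 8. When each of the 52 libraries was left out in turn, the number of called miRNAs ran from 11 to 23. 8 miRNAs (miR-216a-5p, miR-202-5p, miR-217-5p, miR-34c-3p, miR-122-5p, miR-139-5p, miR-34a-5p and miR-216b-5p) stayed called in all 52 of these fits. Against 16 calls, there were 49 with no filter on low counts (23 higher and 26 lower, 16 of the 16 shared, 1403 miRNAs tested), 8 with the letter as a term in the 2 groups alone, 1 in males alone, 8 in letter A alone, 1 in letter B alone and 3 without the females of letter A. Without the letter term, the 2 groups alone gave 13 calls (10 shared), and 283 miRNAs were tested in both of these fits. The split of higher and lower calls was 11 and 10 with DESeq2 size factors in edgeR and 10 and 2 with quantile-normalized log2 RPM. With no filter the strain difference had 9 calls, the month 2 minus month 1 difference 34, the month 3 minus month 2 difference 16 and the sex difference 10. The month 2 minus month 1 difference had 0 calls with limma-voom and 0 with quantile-normalized values, against 2. The sex difference had 0 calls with DESeq2 on the month 2 libraries alone, where the miR-202 arms were not among the 283 miRNAs tested. Signs turned for miR-202-5p in males alone (1.42), for miR-96-5p in letter A alone (0.26) and for miR-292a-5p without the males of letter B (-2.30). The hemolysis index differed in females alone (-0.70). With the mouse as a replicate block, 15 miRNAs were called at month 2 (12 shared with the 16) and the month 2 minus month 1 difference kept 1 call. With each mouse set against its own earlier sample and taken as a fixed effect, 10 were called (7 shared), and miR-202-5p was not called in that fit. The block changed no call of the strain or month 3 minus month 2 difference. Other causes of these changes were not tested.

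Depth limits the scarce miRNAs. 3 reads over the group correspond to 0.0556 CPM in the irradiated and 0.119 CPM in the sham group, and the 2 reads of miR-216b-5p in the sham group lay under that limit.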
